A study of Mus musculus with 6 samples.

Results

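The levels of 10 genes whose products sense double-stranded RNA, or pass the signal on, were followed across 6 RNA sequencing libraries of mouse GC-1spg cells. The genes were taken by symbol from the deposited mRNA table (Ddx58, Ifih1, Dhx58, Mavs, Eif2ak2, Adar, Tlr3, Ticam1, Tbk1 and Ikbke). All 10 symbols were found among the 22298 genes of the table, and all 10 passed the filter on low counts that left 13082 genes for testing. GC-1spg is an immortalised line that serves as a stand-in for type B spermatogonia, the germ cells that precede meiosis. METTL3 is the enzyme that places the m6A mark, a methylated adenosine, on messenger RNA. Of the 6 libraries, 3 came from cells given a control siRNA by transfection (si-NC) and 3 from cells given an siRNA against Mettl3 (si-METTL3), all collected 48 h after transfection at 60% density. The series' design text presents the comparison as one of RNA levels in spermatogonia with different m6A. Neither m6A nor METTL3 protein was measured in these libraries.

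The labels print the same siRNA sequence, shown here because siRNA is itself double-stranded RNA, for both groups, so the sequence of the control siRNA is not known.

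siRNA: gctaccgtatgggacatta

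The labels tag the si-NC libraries as untreated although those cells received the control siRNA, and there was no library of untransfected cells. They do not say whether the replicates were separate cultures. The p-values therefore measure the spread between these 6 libraries, which may be technical. In bulk RNA, fewer cells expressing a gene and less of its RNA per cell cannot be told apart.

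Double-stranded RNA is a sign of viral replication. RIG-I (Ddx58) and MDA5 (Ifih1) are cytosolic helicases that bind different forms of it and act through the mitochondrial adaptor MAVS, while TLR3 binds it in endosomes and acts through the adaptor TRIF (Ticam1). Both routes lead to the kinases TBK1 and IKKε (Ikbke), which phosphorylate IRF3 and IRF7 and so switch on type I interferon genes. PKR (Eif2ak2) answers double-stranded RNA by phosphorylating the translation factor eIF2α, and ADAR1 (Adar) edits adenosine to inosine in double-stranded RNA and keeps the cell's own transcripts from being sensed. Several of these genes, Ddx58, Ifih1, Dhx58, Eif2ak2 and the long isoform of Adar among them, are themselves known to be induced by interferon.

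The libraries held 22146057 to 37698956 counts over mRNA genes and 1982088 to 3111037 over the transcripts of a separate lncRNA table. Mettl3 itself fell from 18.3 ± 0.974 CPM (counts scaled by edgeR to a common effective library size; SD, n = 3) in si-NC to 5.31 ± 0.785 in si-METTL3 (log2 fold change -1.79, edgeR adjusted p = 0.000579). RNA of other tissues differed between the libraries. The surfactant gene Sftpc was at 1.08 and 0.0332 CPM in si-NC 1 and 2, at 30.8 in si-NC 3 and at 32 to 47.5 in the si-METTL3 libraries. The 19 lung markers summed to 79.0 to 173 CPM in si-NC and 182 to 225 in si-METTL3, and 8 blood markers to 0.684 to 12.7 and 13.3 to 19.9. In both lists si-NC 3 lay near the si-METTL3 libraries. Most of the lung sum in si-NC 1 and 2 was Abca3, at 65.8 to 78.0 CPM in si-NC and 85.4 to 91.4 in si-METTL3. Of 16 macrophage and leukocyte markers 13 were under 1 CPM in all 6 libraries. Their sum was 6.27 to 8.12 CPM in si-NC and 9.86 to 11.5 in si-METTL3. The 10 endothelial markers summed to 16.2 to 26.1 CPM in si-NC and 25.5 to 30.5 in si-METTL3. Kdr alone was at 9.75 to 11.0 CPM in si-NC and 10.5 to 11.1 in si-METTL3. The 14 brain markers summed to 82.1 to 99.5 and 103 to 111 CPM, and Syt1 was called higher (log2 fold change 1.28, edgeR adjusted p = 0.0230). The largest part of the brain sum was Mbp, at 59.9 ± 5.87 CPM in si-NC and 57.3 ± 4.23 in si-METTL3 (-0.06, edgeR adjusted p = 0.678). Camk2a, Snap25, Nefl and Gad1, also brain markers, were at 0 in si-NC 1 and present in the other 5 libraries. Of 18 spermatogonial markers 10 were under 1 CPM in all libraries. Sall4, Nanos2 and Sohlh1 were at 0 throughout, and Ddx4 did not exceed 0.284 CPM. The list summed to 173 to 178 CPM in si-NC and 216 to 236 in si-METTL3, mostly from Itga6, Uchl1 and Etv5. Itga6 was called higher (108 to 161 CPM, edgeR adjusted p = 0.00449), as was Gfra1 (2.77 to 4.34 CPM, 0.0389), while Uchl1 was at 38.2 and 38.3 CPM and Etv5 was at 23.7 and 17.7 (0.0529). The germ-cell or spermatogonial markers Ddx4, Dazl, Sall4, Nanos2 and Sohlh1 were thus at or near 0 in cells labelled as a spermatogonial line. Kit, of the same list, was at 0.464 to 1.44 CPM in si-NC and 1.60 to 2.15 in si-METTL3. The part of other cell types' RNA in the results below was not tested.

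Of the 10 genes 4 fell in si-METTL3: Ddx58, Dhx58, Adar and Ifih1. None rose, and 6 did not pass the threshold (threshold 0.05 on the Benjamini-Hochberg adjusted p of edgeR's quasi-likelihood test, over all tested genes). Of all tested genes 18.9% were called in either direction, 10.2% lower and 8.67% higher. The median log2 fold change (si-METTL3 over si-NC) of the 10 genes was -0.47, against 0.03 over all tested genes. The 10 genes were chosen with earlier results of these data known, so these contrasts with all tested genes are a description and no test. By range alone, the si-METTL3 libraries lay entirely below the si-NC libraries for the same 4 genes, as they did for 21.3% of tested genes. They lay entirely above for Ticam1 alone, as they did for 20.2% of tested genes. DESeq2 and limma-voom also gave 4 lower and 0 higher, and 1 member, Ticam1, was higher at an unadjusted p under 0.05. The number of called members was 5 without si-NC 2, where Mavs was added and 36.8% of all tested genes were called. It was 4 without si-NC 3, where 12.2% of all tested genes were called. It was 3 without si-NC 1 or any 1 of the si-METTL3 libraries, with Ifih1 the gene lost. Of all tested genes 5.66% were called without si-NC 1. Without si-METTL3 1, 2 or 3 the share was 10.3%, 5.15% or 4.99%.

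**Figure D1:**
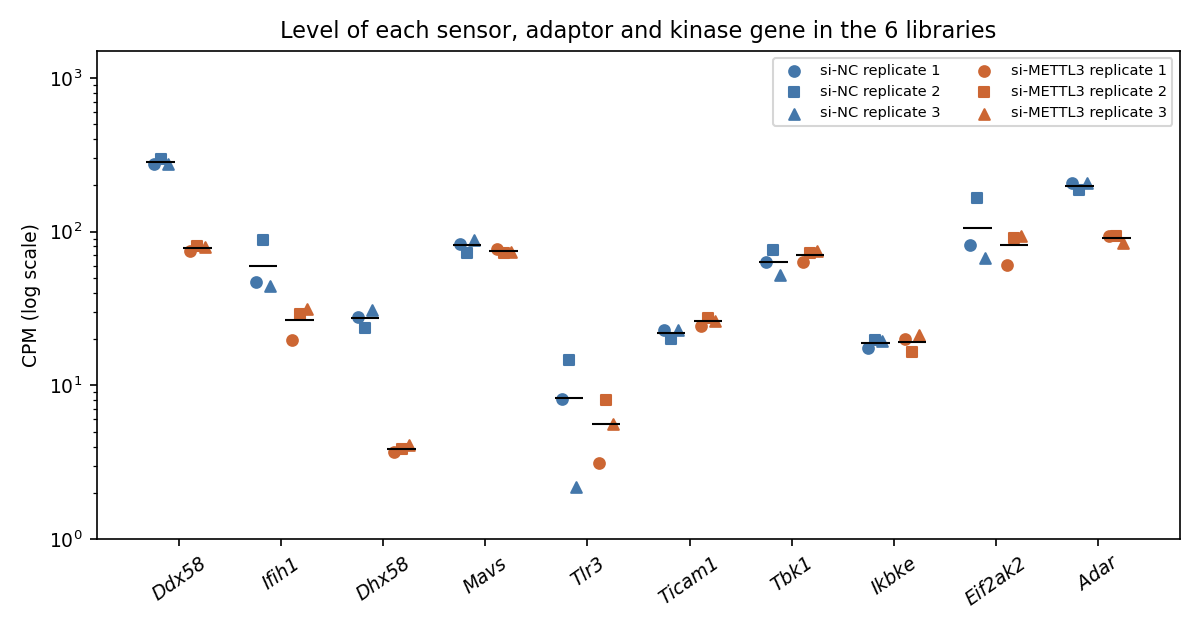
Level of each of the 10 genes (CPM, log scale) in the 3 si-NC libraries (blue) and the 3 si-METTL3 libraries (orange); marker shapes give the replicate number and black lines the group means. Ddx58, Dhx58 and Adar form tight groups that do not overlap, whereas Ifih1, Eif2ak2 and Tlr3 spread widely within si-NC, with si-NC 2 the highest.

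The 3 RIG-I-like receptors fell together, by 2.24- to 7.09-fold. Ddx58 (ENSMUSG00000040296; chromosome 4, 40203773 to 40239828, minus strand, GRCm38) encodes RIG-I, which recognises short double-stranded RNA ends that carry a 5′ triphosphate. It was at 274, 298 and 274 CPM in the si-NC libraries and at 74.5, 80.9 and 78.9 in the si-METTL3 libraries. Every control library was far above every si-METTL3 library, and neither group varied much. The mean fell from 282 ± 13.9 to 78.1 ± 3.30 CPM, which is a log2 fold change of -1.85 (SE 0.07, 95% interval -2.02 to -1.68, edgeR adjusted p = 5.42e-05). This is 27.7% of the control level (24.6% to 31.1%). The counts behind these values were 8993 to 10075 in si-NC and 1816 to 2380 in si-METTL3.

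Dhx58 (ENSMUSG00000017830; chromosome 11, 100694884 to 100704271, minus strand) encodes LGP2, a RIG-I-like helicase without the signalling domain, which modulates RIG-I and MDA5. It was at 27.8, 23.4 and 30.9 CPM in si-NC and at 3.66, 3.83 and 4.10 in si-METTL3. All 3 si-METTL3 libraries were far below the controls and close to each other. The log2 fold change of -2.83 (SE 0.14, 95% interval -3.15 to -2.50, edgeR adjusted p = 7.54e-05) was the largest in size among the 10 genes. It left 14.1% of the control level (11.3% to 17.6%), from 707 to 1133 counts per library in si-NC to 86 to 117 in si-METTL3.

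Ifih1 (ENSMUSG00000026896; chromosome 2, 62595798 to 62646255, minus strand) encodes MDA5, which assembles filaments along long double-stranded RNA. It was at 46.8, 88.6 and 44.4 CPM in si-NC and at 19.6, 29.2 and 31.4 in si-METTL3. The groups did not overlap, but si-NC 2 was far above the other controls and the lowest si-METTL3 library stood apart from the other two. The log2 fold change was -1.17 (SE 0.30, 95% interval -1.88 to -0.45, edgeR adjusted p = 0.0383). When each library was left out in turn, the call held 2 times of 6 (adjusted p from 0.0241 to 0.111). Without si-NC 2 the log2 fold change was -0.78 and still passed.

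TLR3 and its adaptor TRIF make up the endosomal route, and neither passed the threshold. Tlr3 (ENSMUSG00000031639) was at 8.10, 14.7 and 2.18 CPM in si-NC and at 3.13, 8.02 and 5.64 in si-METTL3. The control libraries spanned the whole si-METTL3 range, with the highest and the lowest of all 6 values both in si-NC. Its log2 fold change of -0.58 (SE 0.64) had a 95% interval from -2.08 to 0.93 (edgeR adjusted p = 0.545). It was 0.11 without si-NC 2 and -1.06 without si-NC 3, so these data leave the direction of Tlr3 undetermined. Ticam1 (ENSMUSG00000047123) was at 23.1, 20.03 and 22.9 CPM in si-NC and at 24.5, 27.3 and 26.3 in si-METTL3. The si-METTL3 libraries were all above the controls by a narrow margin. The log2 fold change was 0.24 (SE 0.10, 95% interval 0.01 to 0.47), with a p of 0.0426 before adjustment and 0.127 after it (edgeR).

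MAVS, the adaptor that RIG-I and MDA5 share, and the kinases downstream of both routes did not pass either. Mavs (ENSMUSG00000037523) was at 83.4, 72.5 and 88.2 CPM in si-NC and at 76.6, 72.9 and 73.3 in si-METTL3, ranges that overlap. Its log2 fold change was -0.13 (95% interval -0.34 to 0.08, edgeR adjusted p = 0.322). Without si-NC 2, the lowest control, it was -0.21 and passed (adjusted p = 0.0392). Tbk1 (ENSMUSG00000020115) was at 63.6, 75.7 and 52.1 CPM in si-NC and at 63.4, 72.9 and 75.0 in si-METTL3, with most of the spread among the controls. Ikbke (ENSMUSG00000042349), whose product IKKε is the close relative of TBK1, was at 17.4, 19.7 and 19.3 CPM in si-NC and at 19.99, 16.4 and 21.2 in si-METTL3. The si-METTL3 libraries of Ikbke enclosed all 3 controls. The log2 fold changes were 0.14 for Tbk1 (95% interval -0.19 to 0.48, edgeR adjusted p = 0.501) and 0.03 for Ikbke (-0.25 to 0.32, adjusted p = 0.874). The intervals of Mavs, Tbk1 and Ikbke thus do not reach a 2-fold change in either direction.

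The effector PKR and the editing enzyme ADAR1 differed in how firmly they could be measured. Adar (ENSMUSG00000027951; chromosome 3, 89715022 to 89753446, plus strand) was at 207, 185 and 206 CPM in si-NC and at 93.6, 94.0 and 83.8 in si-METTL3. Each group was narrow and the gap between them wide. The mean fell from 199 ± 12.1 to 90.4 ± 5.79 CPM, a log2 fold change of -1.14 (SE 0.08, 95% interval -1.33 to -0.95, edgeR adjusted p = 0.000446), or 45.4% of the control level (39.8% to 51.9%). Eif2ak2 (ENSMUSG00000024079) was at 82.4, 166 and 67.2 CPM in si-NC and at 60.9, 90.2 and 93.4 in si-METTL3. Apart from si-NC 2, the highest of the 6 libraries by far, the groups covered much the same range. Its log2 fold change was -0.37 (SE 0.34) with a 95% interval from -1.17 to 0.44 (edgeR adjusted p = 0.469), and 0.12 without si-NC 2. The interval of Eif2ak2 thus holds both a fall of the size seen for Adar and a rise.

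**Figure D2:**
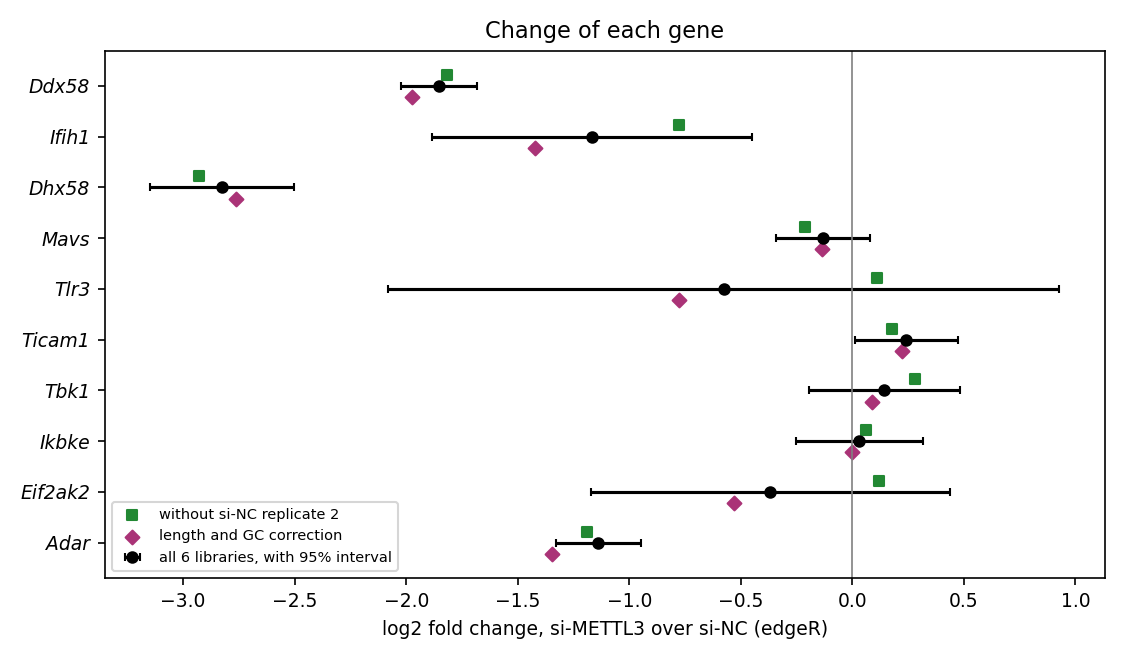
Log2 fold change of each gene (si-METTL3 over si-NC) with all 6 libraries and its 95% interval (black), without si-NC replicate 2 (green), and with a correction for transcript length and GC content (purple). Ddx58, Dhx58 and Adar, at -1.85, -2.83 and -1.14 with all 6 libraries, stay below 0 in every setting shown. Eif2ak2 and Tlr3 cross 0 when si-NC 2 is left out.

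si-NC 2 was high for the members with AT-rich transcripts. Against the mean of si-NC 1 and 3, si-NC 2 was higher by 1.52 (log2) for Tlr3, 1.15 for Eif2ak2 and 0.96 for Ifih1. The longest coding transcripts of these genes have the lowest GC contents of the 10, at 40.0%, 43.9% and 42.8%. For Dhx58, Mavs, Ticam1 and Adar, with GC contents of 53.4% to 56.4%, the same difference was -0.32 to -0.15. It was 0.10 for Ikbke (54.6% GC), 0.12 for Ddx58 (46.6%) and 0.39 for Tbk1 (45.4%). Over all tested genes, those under 45% GC had a median difference of 0.51 (2971 genes) and those of 55% or more a median of -0.20 (3368 genes). A trend with GC content was not limited to si-NC 2. Per 10% of GC content, the log2 slope was 0.087, -0.215 and 0.206 in si-NC 1, 2 and 3. In si-METTL3 1, 2 and 3 the GC slope was 0.120, -0.056 and -0.142. Fits without si-NC 2 thus keep controls whose GC slopes are positive. A trend with transcript length differed between the groups. Per doubling of length, the log2 slope was -0.110, 0.003 and -0.115 in si-NC 1, 2 and 3. It was 0.054, 0.081 and 0.087 in si-METTL3 1, 2 and 3, and its part in the results was not tested. With transcript length and GC content corrected in the fit, Ifih1 had a log2 fold change of -1.42 (edgeR adjusted p = 0.00132), Eif2ak2 -0.53 (0.142) and Tlr3 -0.78 (0.268). With this correction the same 4 genes were called. In the whole table it moved the calls from 1334 lower and 1134 higher to 2365 lower and 1326 higher.

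**Figure D3:**
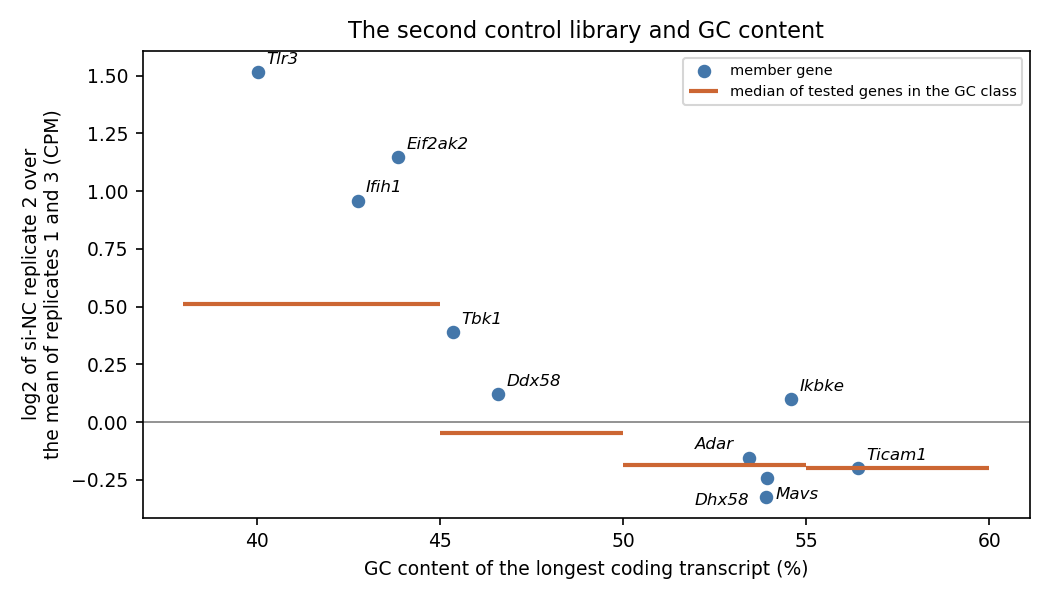
For each of the 10 genes, the log2 ratio of si-NC replicate 2 to the mean of si-NC replicates 1 and 3 (CPM) against the GC content of its longest coding transcript (%). Orange lines are medians of all tested genes under 45%, from 45% to 50%, from 50% to 55%, and of 55% or more; Tlr3, Eif2ak2 and Ifih1 lie above the 0.51 of the lowest class.

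Per transcript length, the order of the levels also differed between the groups. On the authors' FPKM scale, Ddx58 was the highest of the 10 in si-NC at 70.1 ± 6.30 and Adar followed at 33.6 ± 1.45, each clear of the next gene. Mavs (22.9), Eif2ak2 (22.2), Tbk1 (17.3), Ifih1 (12.7) and Dhx58 (10.7) came next, and within this run each gene's range overlapped that of its neighbour. Ticam1 (6.01), Ikbke (4.77) and Tlr3 (2.84) were lowest and did not overlap each other. In si-METTL3, Mavs (21.2), Ddx58 (20.2), Tbk1 (19.3), Eif2ak2 (16.9) and Adar (15.4) formed 1 run of overlapping neighbours. Ticam1 (7.20), Ifih1 (5.91) and Ikbke (4.93) formed another, and Tlr3 (1.81) and Dhx58 (1.54) were at the bottom. RIG-I mRNA was thus well above that of its adaptor MAVS in si-NC, and in si-METTL3 the ranges of the pair overlapped.

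The ratio of a gene's count to its FPKM gives the average transcript length its reads were assigned to, scaled here on 608 genes with a single transcript and at least 200 counts. It bears on Adar, which makes a long interferon-induced isoform and a shorter constitutive one that a gene total cannot separate. For Adar it was 4849 ± 31.0 bases in si-NC and 4859 ± 8.58 in si-METTL3, and for Ddx58 3299 ± 94.2 and 3197 ± 124. The ranges of the groups overlapped for Adar and for Ddx58. For Tbk1 they did not, although the means of 3015 and 3024 bases were almost equal. The ratio was worked out for the 10 genes only, so how often ranges overlap over all genes is not known. The ratio of Adar thus showed no change between the groups. How far a switch between its isoforms would move the ratio was not worked out, so no conclusion on isoform use is drawn.

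The lncRNA table lists noncoding transcripts of these same genes. They lie within their genes, and how the authors divided shared reads is not stated by any label or header, so their counts are not known to be independent of the gene counts. It held 20 such transcripts, all annotated as processed transcripts, and 8 had enough counts to test: 6 of Ddx58, 1 of Eif2ak2 and 1 of Ifih1. Of the 8, 2 fell and none rose, where 0.733% of the 5728 tested transcripts were called, 0.576% lower and 0.157% higher. The CPM of these transcripts are scaled to the lncRNA table alone and do not compare with those of the genes. In si-NC, Ddx58-205 had 666 to 792 counts per library where the Ddx58 gene had 8993 to 10075. Ddx58-205, the most abundant, was at 241, 292 and 268 CPM in si-NC and at 69.2, 54.5 and 75.6 in si-METTL3. The groups were far apart, as for the gene. Its log2 fold change was -2.005 (SE 0.18, edgeR adjusted p = 0.00913). Ddx58-207 was at 55.6, 69.4 and 62.1 CPM in si-NC and at 22.8, 21.9 and 20.8 in si-METTL3. It too was clearly separated (log2 fold change -1.51, SE 0.20, edgeR adjusted p = 0.0301).

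Among the other 4 Ddx58 transcripts the log2 fold changes were -1.61 (Ddx58-203), -1.82 (Ddx58-206), -1.46 (Ddx58-210) and -1.53 (Ddx58-202), with edgeR adjusted p from 0.114 to 0.473. Eif2ak2-203 had -0.86 (adjusted p = 0.339) and Ifih1-204 -1.06 (0.604). The si-METTL3 libraries lay below all controls for 6 of the 8, which 12.9% of all tested transcripts did. The calls of Ddx58-205 and Ddx58-207 each held 1 time of 6 when each library was left out in turn, with adjusted p up to 0.0997 and 0.145. Ddx58 counts in the lncRNA table were 9.85% to 13.2% of those summed over both tables in the 6 libraries, with overlapping ranges in the groups. Since the tables may share reads, this need not be a share of separate reads. The 5 Dhx58 transcripts were too scarce to test: Dhx58-202, the most abundant, had 76 counts over the si-NC libraries and 6 over the si-METTL3 libraries.

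**Figure D4:**
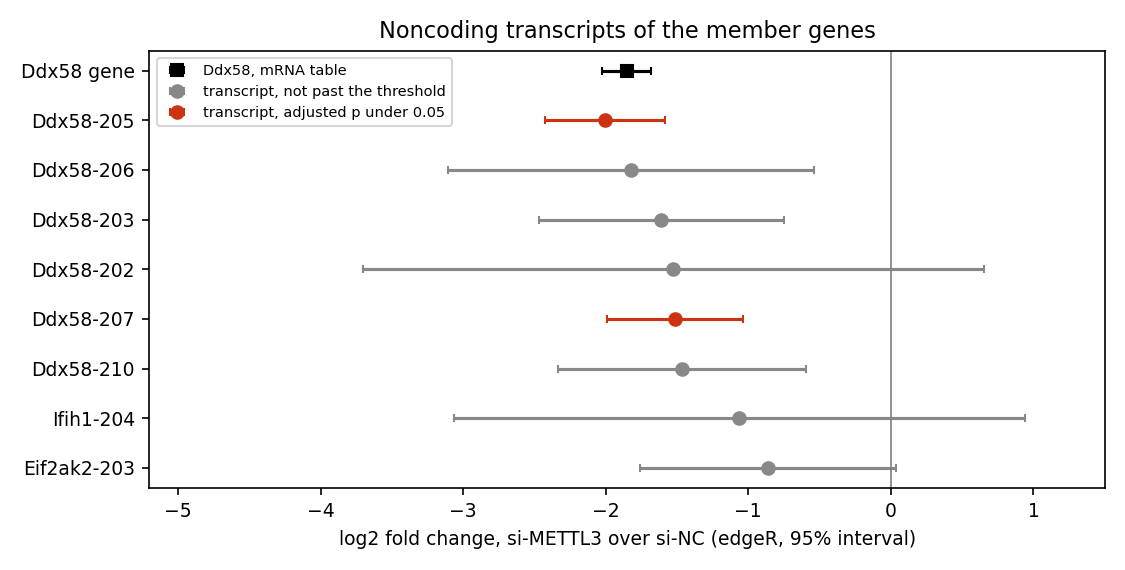
Log2 fold change (si-METTL3 over si-NC, 95% interval) of the 8 tested noncoding transcripts of the sensor genes in the lncRNA table, with the Ddx58 gene of the mRNA table for reference (black square). Red transcripts passed the threshold, grey ones did not; all 8 values are below 0, and the 6 of Ddx58 lie between -2.005 and -1.46.

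Promoter sequences were looked at because several of these genes are known interferon targets, and the elements that interferon-activated factors bind carry GAAA repeats at close spacing. RefSeq (GRCm38.p6) gave 11 promoters, 250 bases before to 50 after each start, for 9 of the 10 genes, 3 of them for Adar. Dhx58 had no entry. The motifs GAAANNGAAA and GAAANGAAA were searched on both strands; they were chosen after looking at the sequences, and 2 matches of one or of both can overlap. At least 1 of them was found for 4 of the 9 genes: Ddx58, Ifih1, Adar and Eif2ak2. Of all 27025 genes with a promoter entry, 7.27% held either motif, 3.99% the first and 3.70% the other. Per promoter the shares of all 32851 were 6.27%, 3.44% and 3.17%. The windows of 30 bases, with the motif in capitals, were as follows.

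Ddx58, chr4:40239867-40239896, minus strand, GAAANGAAA at -60 to -52: gtctaggttcaGAAACGAAActggatcccc
Ddx58, chr4:40239804-40239833, plus strand (opposite to the gene), GAAANNGAAA at 3 to 12: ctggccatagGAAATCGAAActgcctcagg
Ifih1, chr2:62646206-62646235, minus strand, GAAANNGAAA at 33 to 42: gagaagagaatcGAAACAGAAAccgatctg
Adar, chr3:89730735-89730764, plus strand, GAAANGAAA at 29 to 37: gccttttcaagGAAACGAAAgtgaactctg
Eif2ak2, chr17:78882535-78882564, minus strand, GAAANNGAAA at 19 to 28: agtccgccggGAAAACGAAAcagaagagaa

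Positions count from the RefSeq start as 1. The Adar window belongs to the most downstream of its 3 promoter entries. Of the 4 genes with a motif, 3 fell and Eif2ak2 did not pass the threshold, and no motif was found for Mavs, Tlr3, Ticam1, Tbk1 or Ikbke. Since the motifs were chosen after seeing these sequences and Dhx58 could not be searched, this tally tests no link between motif and fall. A match is a description of the letters and not a measured binding site.

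Genes that act around these sensors were read from the same fit in 5 lists, described by counts and medians. The shares to read the counts against are 10.2% lower and 8.67% higher over all tested genes, with a median of 0.03, and no list was tested against them. The lists were chosen with earlier results of these data known, so a count above these shares may come from that choice. Among 19 regulators of the RIG-I-like receptors 5 fell and none rose (median log2 fold change -0.25). Ddx60, a helicase described as a RIG-I cofactor, went from 12.6 ± 5.05 to 1.87 ± 0.600 CPM (-2.77, edgeR adjusted p = 0.00425). The interferon-induced partners Ifi35 (-1.73) and Nmi (-1.44) fell, as did Trim25 (-1.31, adjusted p = 0.0200), a ubiquitin ligase that activates RIG-I. The RNA-binding protein gene Zc3hav1 (-0.56), named after its value was seen, was the fifth. The call of Trim25 was lost in 1 of the 6 leave-one-out fits (adjusted p up to 0.0829). Rnf135, another ubiquitin ligase of RIG-I, had -0.39 (adjusted p = 0.396).

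Of 27 other double-stranded RNA binding proteins tested, 2 fell and 3 rose, with a median of 0.10. These counts are near the 10.2% and 8.67% of all tested genes and are no result about the list. Zbp1, a sensor of left-handed double-stranded RNA and DNA, was at 20.8, 18.9 and 28.9 CPM in si-NC and at 0.313, 1.43 and 0.771 in si-METTL3. Every si-METTL3 library was far below every control (-4.83, SE 0.44, edgeR adjusted p = 0.00119). The helicase Dhx9 (0.74, adjusted p = 0.0399), the RNA exosome cofactor Skiv2l (0.50, 0.0153) and the editing enzyme Adarb1 (0.34, 0.0412) rose. Dhx29 (-0.29, 0.0256), named after its value was seen, fell. The calls of Dhx9 and Adarb1 held in 1 of the 6 leave-one-out fits, Dhx29 in 2 and Skiv2l in 3. The PKR activator Prkra (0.08) and Tarbp2 (-0.29, adjusted p = 0.0696) did not pass.

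Of 28 partners and signal proteins of TBK1 and IKKε, 4 fell and none rose (median -0.03). Irf7, the interferon-induced transcription factor that these kinases phosphorylate, went from 127 ± 18.3 to 12.2 ± 4.0 CPM (-3.38, SE 0.24, edgeR adjusted p = 0.000423). Its constitutive relative Irf3 was at 16.6 ± 2.50 and 17.0 ± 1.44 CPM (0.03, adjusted p = 0.881). Tnfaip3 (-1.03), which encodes the ubiquitin-editing inhibitor A20, and Traf2 (-0.48) fell. Dok3 fell at levels near 1 CPM (-1.16, adjusted p = 0.0326). The calls of Traf2 and Dok3 held in 3 and 1 of the 6 leave-one-out fits. Traf3, which links MAVS to TBK1, had 0.20 (adjusted p = 0.535).

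Among 21 tested sensors and adaptors of other nucleic acid routes 5 fell and 1 rose (median -0.18). The DNA-sensing family member Ifi204 (-1.83), the exonuclease Trex1 (-0.73) and the nucleotide hydrolase Samhd1 (-0.64) fell. Dhx37 and Unc93b1 (both -0.34), named after their values were seen, fell too. Aim2, a DNA sensor of the inflammasome, rose from 6.25 ± 1.82 to 11.7 ± 1.31 CPM (0.91, edgeR adjusted p = 0.0342). The calls of Dhx37 and Unc93b1 held in 1 and that of Aim2 in 2 of the 6 leave-one-out fits. The DNA sensor Cgas had 0.08, and its adaptor Sting1 -0.39 (adjusted p = 0.0536).

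Of 18 genes of the eIF2 kinases and their pathway, 5 fell and 1 rose (median -0.20). The transcription factors Atf4 (-0.93) and Ddit3 (-1.14), which act downstream of phosphorylated eIF2α, fell, as did Ppp1r15a (-0.90), a subunit of its phosphatase. Ppp1r15b (-0.47) and Eif2s1 (-0.42), which encodes eIF2α itself, fell; both were named after their values were seen. Dnajc3, an inhibitor of the eIF2 kinases, rose (0.63, edgeR adjusted p = 0.0462). The calls of Ppp1r15b, Eif2s1 and Dnajc3 held in 3, 2 and 1 of the 6 leave-one-out fits. The other kinases, Eif2ak1 (0.00), Eif2ak3 (0.41) and Eif2ak4 (0.09), did not pass.

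**Figure D5:**
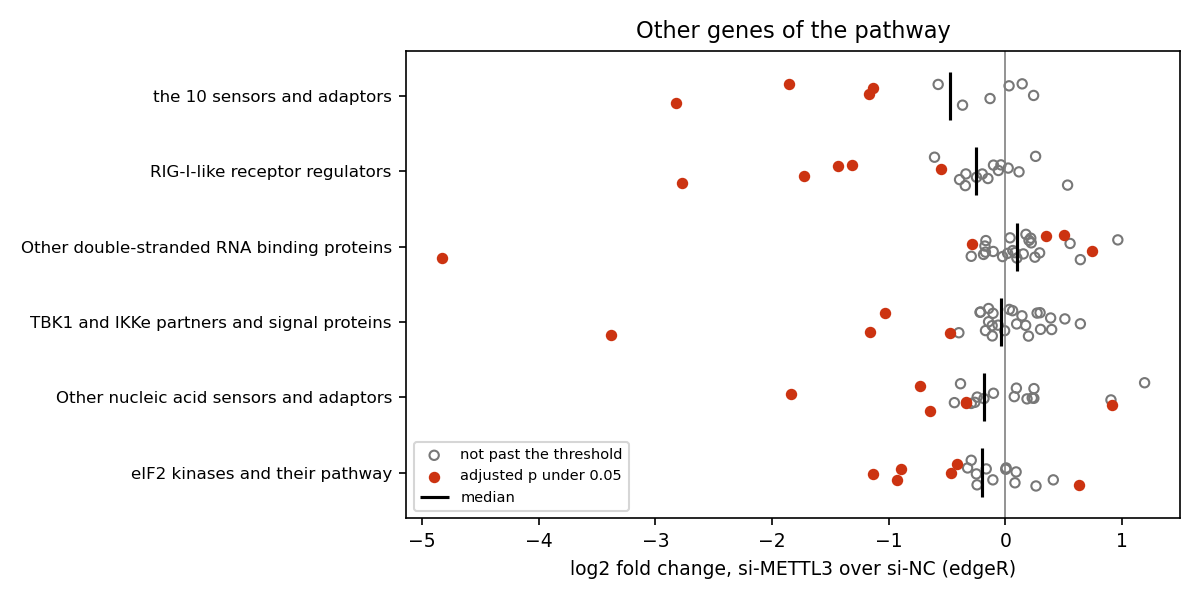
Log2 fold change (si-METTL3 over si-NC) of the 10 sensors and adaptors and of the tested genes of 5 further lists; red points passed the threshold and black lines mark each list's median. The medians of the lists run from -0.25 to 0.10, with single genes such as Zbp1 at -4.83 and Irf7 at -3.38 far to the left.

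The genes whose levels ran most closely with the called members were found by Pearson's r of log2 CPM over the 6 libraries, among 9879 tested genes of at least 5 CPM on average. As a description, with r above 0.99, Ddx58 ran with Paip2b, Pcsk5 and Phf11d, Dhx58 with Ccl2, Orc6 and Alkbh4, and Adar with Helz2, Tmem140 and Apol9a. A gene with so high an r to these members is bound to be lower in si-METTL3, since r spans both groups. All 9 were, by different folds. For Ddx58 the log2 fold changes were -0.66 (Paip2b), -0.69 (Pcsk5) and -2.32 (Phf11d). Ifih1, whose controls spread, ran with Vrk1, Gbp7 and Rala (r = 0.986 to 0.990). Of these only Gbp7 was called (-2.02, edgeR adjusted p = 0.0402). All 3, like Ifih1, were highest in si-NC 2, which choosing them by r favours.

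The authors' deposited table of the same comparison called the same 4 of the 10 genes, all lower. It lists log2 fold changes of -1.79 for Ddx58, -2.80 for Dhx58, -1.12 for Adar and -1.10 for Ifih1. These are log2 ratios of the group mean FPKM, whereas the values above are edgeR fits of counts. In the authors' deposited table the adjusted p of Ifih1 was 0.000422, the same value that DESeq2 gave here. The deposited adjusted p of Ddx58 (1.68e-68) and Ticam1 (0.213) were also those of DESeq2 here. The authors' calls are therefore not separate from the DESeq2 alternative on the same counts.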

How the data were processed

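Counts and FPKM values per library were deposited by the authors in an mRNA table of 22298 genes, with a second table of 30924 noncoding transcripts. Per the submitters' processing notes the build was mm9 and the tools were RSEM, StringTie, Bowtie2 and fastp, without versions or roles. The counts were whole numbers in every library. The authors' deposited log2 fold changes and p-values were copied for the 10 genes only.

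Counts were tested with edgeR 4.0.16 (R 4.3.3): TMM normalization, filterByExpr, a quasi-likelihood fit of the group with no covariate, and Benjamini-Hochberg adjustment over all tested features at 0.05. The lncRNA table was fitted separately. CPM are counts scaled by edgeR to the TMM-adjusted library size; SE is that of the fitted log2 fold change. Groups and replicate numbers come from the sample titles. Whether equal numbers pair the libraries is not known. Deviations from the group means correlated at 0.07, 0.20 and -0.31 for replicates 1, 2 and 3. Libraries of unequal number correlated at -0.40 to 0.34, and with 3 libraries per group these values cannot decide it.

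The 10 genes, the lists and the markers were chosen with earlier results of these data known. Named genes were the 10 members, up to 4 called genes of each list with the largest change, Mettl3, for each called member the 3 most correlated genes, and its transcripts of at least 1 CPM. Alternatives were DESeq2 1.42.0, limma-voom and limma 3.58.1 on log2(FPKM + 1) or log2(FPKM + 0.1), other scalings and filters, a replicate block and each library left out. A length and GC correction was added after seeing the data.

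Positions, names and transcript GC contents are from GENCODE M21 (GRCm38) and promoters from RefSeq (GRCm38.p6), matched by gene, with no coordinate converted from mm9. 1 gene that a correlation named is not reported here.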

Additional observations from a re-analysis of the deposited data

How the results depend on the processing

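In the 11 alternatives that left out no library, log2 fold changes ran from -1.97 to -1.74 for Ddx58. They ran from -2.835 to -2.20 for Dhx58 and from -1.34 to -1.08 for Adar. The falls of Ddx58, Dhx58 and Adar kept their call in all 6 fits that left out a library and in all 11 other alternatives. Ifih1 kept it in 2 of the 6 (log2 fold change -1.37 to -0.78) and in 10 of the 11, the exception being limma on log2(FPKM + 1) without a filter (adjusted p = 0.0670). The cause was not tested.

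Leaving out each library in turn gave 3 to 5 called members, 665 to 4917 called mRNA genes (main 2468), 13 to 54 called pathway genes (main 26), 0 to 77 called transcripts of the lncRNA table (main 42) and 0 to 2 called transcripts of the members (main 2). With the replicate block the calls were 1273 mRNA genes, 16 pathway genes, 0 transcripts of the lncRNA table (789 at an unadjusted p under 0.05) and 0 transcripts of the members (5 unadjusted). The block changed no call among the 10 genes (Ifih1 adjusted p = 0.0459). The lncRNA table gave 150 calls without a filter on low counts and 217 with DESeq2, which called 4 transcripts of the members. With the length and GC correction 42 pathway genes were called and the median of all tested genes moved from 0.03 to -0.04.

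Directions turned for 4 members that did not pass. Leaving out each library in turn gave log2 fold changes from -0.63 to 0.12 for Eif2ak2, -1.06 to 0.11 for Tlr3 (both above 0 only without si-NC replicate 2), -0.011 to 0.28 for Tbk1 (below 0 only without si-NC replicate 3) and -0.046 to 0.13 for Ikbke (also -0.024 and -0.021 in the fits that lacked si-NC 1 and si-METTL3 1). Ikbke was -0.0012 with the length and GC correction and -0.0022 with that and the replicate block. Depth was lowest for Tlr3 (80 to 443 counts per library) and for Dhx58 in si-METTL3 (86 to 117).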

Other observations

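For 2 members that did not pass the threshold, genes among the closest by Pearson's r over the 6 libraries were looked up after their values were seen. Eif2ak2 ran with Adamts5 (r = 0.995) and Zfhx3 (0.994), and Tlr3 with Nol7 and Rev1 (both 0.968) and Pla2g4c (0.957). None of these 5 genes was called between the groups (edgeR adjusted p from 0.518 to 0.777). Like Eif2ak2 and Tlr3 they were highest in si-NC 2, which choosing them by r favours.

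The siRNA sequence given in the labels occurs in 6 of 15 annotated Mettl3 transcripts. The longest coding transcripts of the 10 genes shared at most 11 bases in a row with it (Ikbke). The 7-base site GGACATT, which pairs with the seed of the strand complementary to the printed sequence, was in the longest coding transcript of 0 of the 10 genes and in 23.9% of 13075 tested genes with a transcript.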
